A study of Mus musculus with 24 samples.

Results

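The mitochondrial carrier genes of the SLC25 family were taken as the protein-coding genes of the mm10 annotation whose symbol starts with Slc25a, with Slc25a37 left out, which gave 46 of 21938 protein-coding genes. Slc25 proteins sit mostly in the inner mitochondrial membrane, where each moves a small molecule across it: nucleotides, phosphate, carboxylates, amino acids, cofactors or iron. In developing red cells the family is known for supplying heme synthesis, since the pathway begins and ends in the mitochondrial matrix: Slc25a38 brings glycine to the first step, Slc25a28 (mitoferrin 2) carries iron, and Slc25a39 carries glutathione.

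Mouse erythroleukaemia (MEL) cells, a virus-transformed erythroid line, were studied undifferentiated (day 0) and after 2 and 4 days of differentiation in DMSO. At each day 2 replicate cultures were crosslinked with formaldehyde and digested with a nuclease for single-stranded RNA (ssRNase) or for double-stranded RNA (dsRNase), before or after the proteins were removed, which makes 24 libraries in 12 groups of 2. A protein-protected site (PPS) is a stretch with more reads when proteins were present during digestion than when they were not. PPSs were called in each of 4 call sets a day (2 nucleases by 2 replicates) and merged into 1 list a day. All groups are the same cell line, and no primary cells were studied.

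Exonic coverage is the percent of a gene's exonic nucleotides, over all its annotated transcripts, that lay in a PPS on its strand. PPSs of 20 to 40 nt, the size a ribosome protects, were left out. A replicate's value counts the PPSs with at least 1 call of that replicate, at the borders of the merged list, so the spread between replicates is understated. With 2 replicates against 2 no two-sided permutation test can go below p = 0.333, so no test was made, and a difference is given as its lowest and highest value among the 4 ways to pair 1 replicate of each day. A gene was called higher or lower where every pair differed by 5 percentage points or more in 1 direction. A PPS list gives no RNA level, so more RNA and more protection of each RNA cannot be told apart, and fewer cells and less RNA per cell cannot either.

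The 3 lists held 138689, 169575 and 152513 PPSs at days 0, 2 and 4. The ssRNase replicate 2 call sets stood apart in strand: 66.9% of their PPSs were on the plus strand at day 0 and 43.3% at day 4, against 49.8% to 51.8% in the other 10 sets. Of the carrier genes 17 lie on the plus strand and 29, Slc25a51 among them, on the minus strand. Results without these ssRNase calls are given among the alternatives. Of 10 erythroid markers all had an exonic PPS and 7 were called higher at day 4, while 0 of 7 markers of other blood and tissue types had one.

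PPSs inside the coding sequence are shown for the 3 heme and iron carriers. They are also shown for the 2 members with the largest rise and the 2 with the largest fall of merged coverage. Each is the highest-scoring PPS of 41 to 300 nt wholly inside the coding part of 1 exon. It was taken at day 0 or day 4, whichever had the higher merged coverage, and day 2 was not searched. The highest-scoring PPS of 41 to 300 nt inside a member's intron, at any day, is shown too. Sequences were read from the reference genome (GRCm38, the build of mm10), 5′ to 3′ on the strand of the gene. Capitals mark nucleotides that also lay in a PPS of another day, and lower case those in the PPS of the named day alone.
Slc25a38, day 4, chr9:120120801-120120846, plus strand, exon 5 of 7: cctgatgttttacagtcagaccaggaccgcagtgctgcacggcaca
Slc25a39, day 0, chr11:102404481-102404542, minus strand, exon 8 of 12: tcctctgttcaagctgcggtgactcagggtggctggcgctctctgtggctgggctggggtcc
Slc25a28, day 0, chr19:43664551-43664638, minus strand, exon 4 of 4: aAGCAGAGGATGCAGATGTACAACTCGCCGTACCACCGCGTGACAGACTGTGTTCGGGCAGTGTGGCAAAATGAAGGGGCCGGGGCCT
Slc25a51, day 4, chr4:45400064-45400143, minus strand, exon 3 of 3: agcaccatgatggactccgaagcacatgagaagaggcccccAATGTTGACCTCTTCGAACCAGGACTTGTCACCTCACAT
Slc25a1, day 4, chr16:17926435-17926539, minus strand, exon 6 of 9: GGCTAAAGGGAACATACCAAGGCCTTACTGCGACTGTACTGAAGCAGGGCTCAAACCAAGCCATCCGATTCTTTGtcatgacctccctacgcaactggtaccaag
Slc25a33, day 0, chr4:149744851-149744892, minus strand, exon 7 of 7: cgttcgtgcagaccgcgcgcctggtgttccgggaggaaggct
Slc25a5, day 0, chrX:36796843-36796906, plus strand, exon 2 of 4: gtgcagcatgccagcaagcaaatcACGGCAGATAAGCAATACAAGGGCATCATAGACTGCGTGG
Slc25a21, day 2, chr12:57144195-57144346, minus strand, intron 2: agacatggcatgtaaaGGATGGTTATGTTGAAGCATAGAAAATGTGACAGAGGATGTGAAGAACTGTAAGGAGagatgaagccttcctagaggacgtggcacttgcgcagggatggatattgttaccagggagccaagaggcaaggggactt
Of the Slc25a28 site, 87 of 88 nt lay in a PPS of day 4 too, and both replicates called it with ssRNase on both days. The sites of Slc25a38, Slc25a39 and Slc25a33 each rested on 1 dsRNase call set, and no nucleotide of them lay in a PPS of another day. Those of Slc25a38 and Slc25a33 had the lowest score in the lists, 5.4.

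Of the 46 carrier genes, 34 had a PPS on an exon at some day, as did 9550 of the 21938 protein-coding genes, and 25 had one at all 3 days (73.5% of the 34, against 75.2% over all genes with an exonic PPS). The 12 without one were Slc25a2, Slc25a14, Slc25a15, Slc25a18, Slc25a27, Slc25a29, Slc25a31, Slc25a34, Slc25a41, Slc25a43, Slc25a48 and Slc25a54. Among them are Slc25a31, the germ-cell ADP/ATP carrier, and 4 of the 9 amino acid and carnitine carriers. The median exonic coverage of the 34 was 4.54%, 3.87% and 3.75% at days 0, 2 and 4, below the 6.0%, 5.59% and 6.02% over all genes with an exonic PPS.

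**Figure D1:**
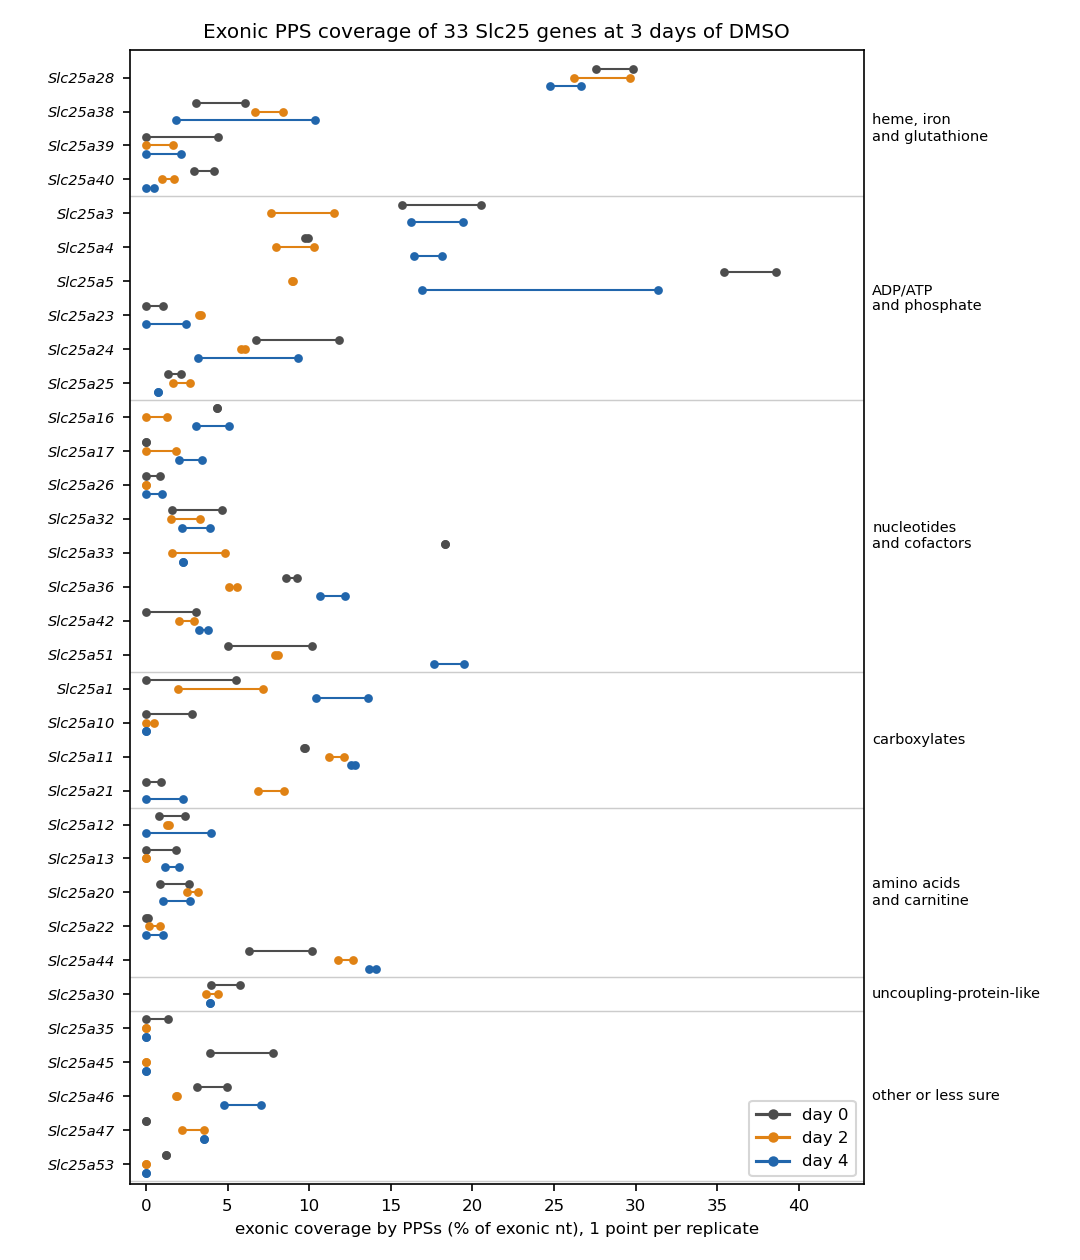
Exonic PPS coverage in percent of exonic nucleotides (x axis) of 33 of the 34 carrier genes with an exonic PPS (y axis, by the molecules they move), with 1 point per replicate and a line joining the 2 replicates of a day. Slc25a5 and Slc25a28 reached the highest levels, and most other members stayed under 10% at each day.

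From day 0 to day 4 the family as a whole showed no common direction. Merged coverage was higher at day 4 for 18 members, lower for 15 and equal for 1, and the median change was 0.43 percentage points (0 to 0.39 over the 4 replicate pairs), against 0 over all genes (0 to 0.13). Only Slc25a4 and Slc25a51 were called higher, 2 of 34 (5.88%), where 8.23% of all genes were. Slc25a33 alone was called lower, 1 of 34 (2.94%), where 7.03% of all genes were. From day 0 to day 2 the median change was -1.05 points (-0.67 to 0 over the pairs) against -0.45 over all genes. Slc25a21 was the only member called higher at day 2 (2.82% of all genes were), and Slc25a5 and Slc25a33 were called lower (8.04% of all genes were). From day 2 to day 4 Slc25a4, Slc25a5, Slc25a36 and Slc25a51 were called higher, 11.8% of the members beside 9.05% of all genes, and 0 members were called lower beside 2.74%.

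**Figure D2:**
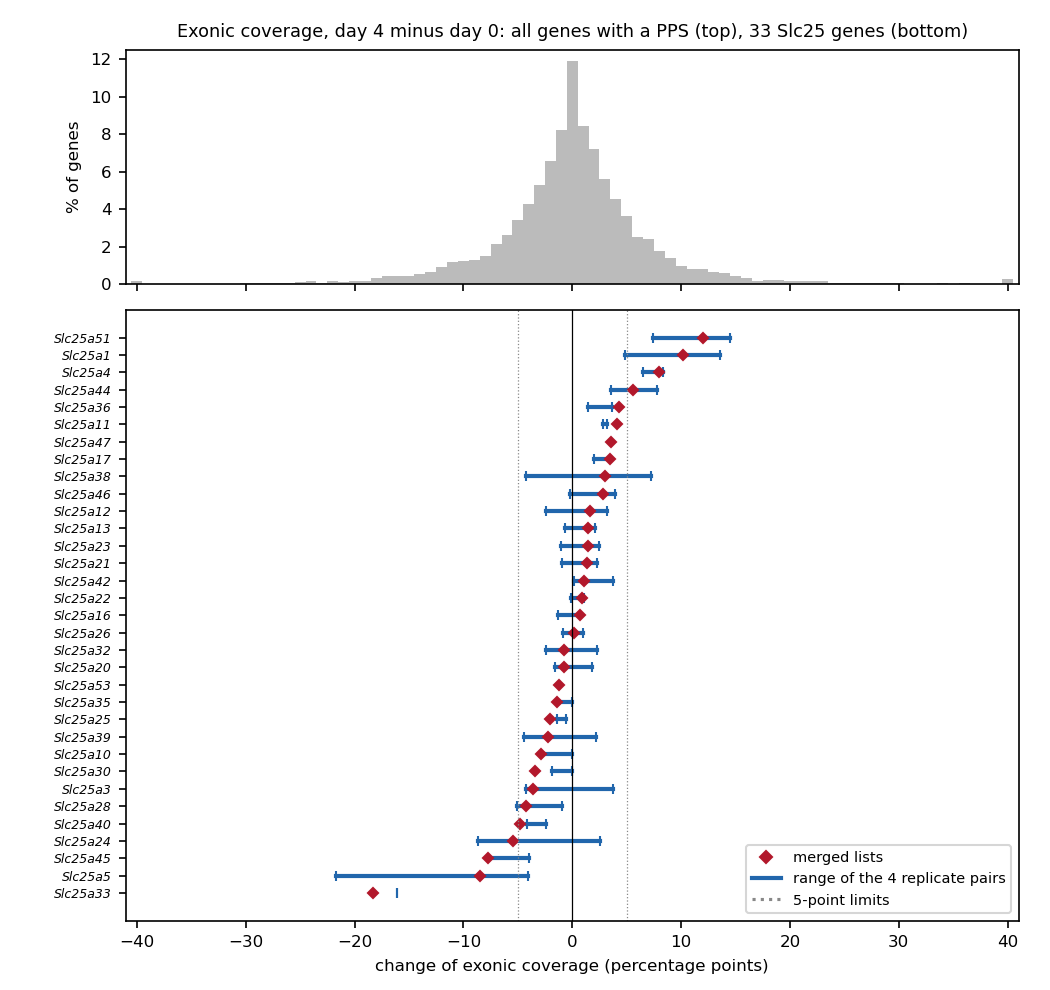
Day 4 minus day 0 difference of exonic coverage in percentage points (x axis): the share of all genes with an exonic PPS in bins of 1 point (top; changes beyond 40 points are in the end bars) and 33 of the 34 carrier genes (bottom), with the merged-list change as a diamond and the range of the 4 replicate pairs as a line. Slc25a51 and Slc25a4 lie wholly above 5 points and Slc25a33 wholly below -5.

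Of the carriers that serve heme and iron, Slc25a28 was among the 2 most covered members: its exonic coverage was 29.8% and 27.6% in the 2 replicates at day 0, 26.2% and 29.7% at day 2, and 24.8% and 26.6% at day 4. Replicates of day 0 and day 2 overlapped, and both of day 4 were below both of day 0, with differences of -5.09 to -0.96 points, which falls short of the call. The ssRNase carried most of it, with 24.4% and 21.1% at day 0 against 8.78% and 12.7% with dsRNase.

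Much of the Slc25a28 coverage lay outside its transcript with the longest coding sequence (longest-CDS transcript). Of its 3749 exonic nucleotides, 2214 belong only to other annotated transcripts, and 26.9%, 34.2% and 28.2% of these were covered at days 0, 2 and 4. The coding sequence of the longest-CDS transcript was covered for 39.1% and 34.8% in the replicates at day 0, 41.8% and 36.9% at day 2, and 37.0% and 37.1% at day 4, which overlap. Its 3′ UTR was covered for 73.8% at day 0 (47.3% and 73.8% in the replicates), 7.93% at day 2 (7.93% and 0%) and 9.45% at day 4 (0% and 9.45%). On that transcript alone the replicates of day 4 were lower than those of day 0 by more than 5 points in every pair, so the call for Slc25a28 depends on which annotated exons are counted. The excluded paralog Slc25a37 (mitoferrin 1) stood at 17.5% and 15.9% at day 0 and at 72.9% and 68.0% at day 4, in the same libraries and by the same measure.

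Slc25a38 had exonic coverage of 6.04% and 3.09% at day 0, 8.37% and 6.66% at day 2, and 10.3% and 1.82% at day 4. Both day 2 replicates were above both of day 0, while the day 4 replicates spanned the whole day 0 range. Its coding sequence was covered for 17.9%, 18.8% and 12.4% at days 0, 2 and 4 in the merged lists. The 3′ UTR was covered for 10.2%, 20.7% and 28.7%, with replicates at 7.94% and 2.29% at day 0 and at 21.9% and 6.73% at day 4, which overlap. All 5 exonic PPSs of day 4 rested on 1 call set each.

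Slc25a39 was sparse, with 3 exonic PPSs at day 0 and 1 at each later day. Its exonic coverage was 4.39% and 0% at day 0, 1.67% and 0% at day 2, and 0% and 2.18% at day 4. At each day 1 replicate was at 0, so no difference between days could be read. Its paralog Slc25a40 went from 2.95% and 4.15% at day 0 through 1.72% and 0.98% to 0% and 0.51% at day 4, lower in every pair, by -4.15 to -2.43 points. A copy of at least 96% identity exists for 24.8% of the exonic nucleotides of Slc25a40, and outside these the merged coverage was 5.47%, 0.79% and 0.68%, against 5.34%, 2.69% and 0.51% over all of them.

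**Figure D3:**
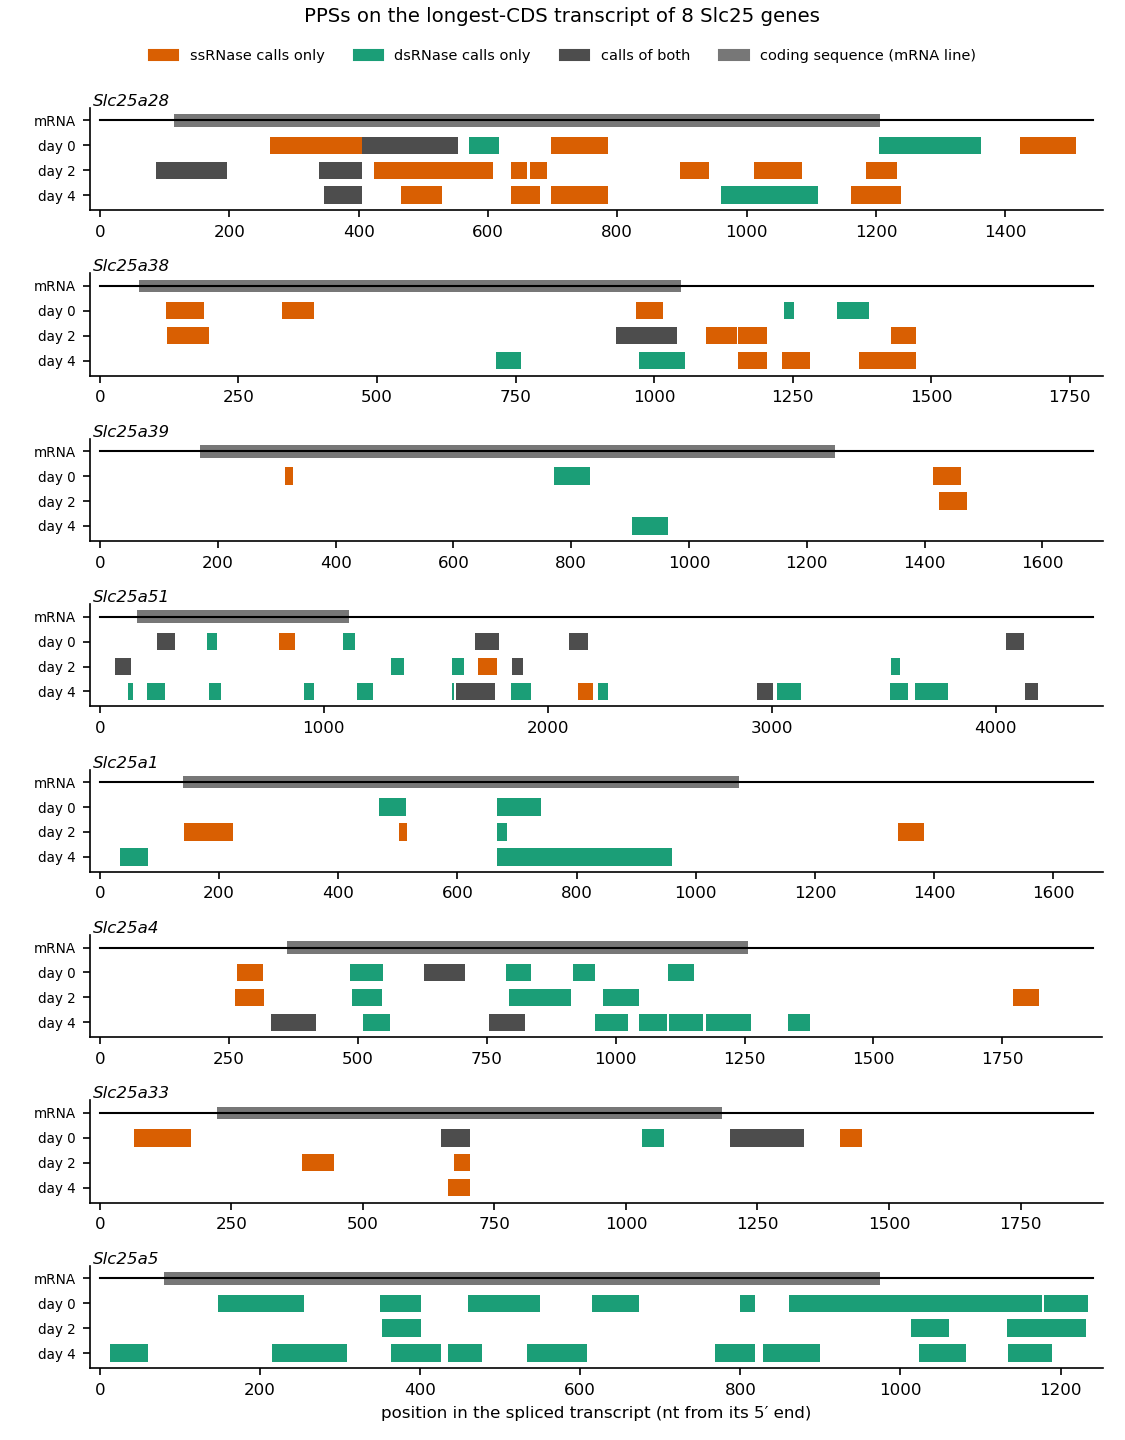
PPSs on the spliced longest-CDS transcript of 8 carrier genes (x axis, nt from the 5′ end; the grey bar on the top line is the coding sequence), 1 row per day, coloured by the nuclease of their calls. Slc25a5 carries only dsRNase PPSs, Slc25a1 at day 4 likewise, and Slc25a51 has a PPS over nt 1688 to 1765, in its 3′ UTR, at all 3 days.

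Among the ADP/ATP and phosphate carriers, Slc25a4, the adenine nucleotide translocase of heart and muscle, was called higher. Its exonic coverage was 9.94% and 9.77% at day 0, 10.3% and 7.95% at day 2, and 18.1% and 16.4% at day 4. Both day 4 replicates stood above all 4 earlier ones, and the difference from day 0 was 6.46 to 8.37 points. At scores of 10 or more Slc25a4 was no longer called. The coding sequence was covered for 32.0%, 28.0% and 49.7% at the 3 days. The difference came with the dsRNase, which gave 9.94% and 7.65% at day 0 against 18.1% and 16.4% at day 4. The ssRNase gave 3.40% and 2.12% against 3.02% and 3.70%. Over all genes with an exonic PPS the mean dsRNase coverage was 3.66% and 4.18% at day 0 and 4.96% and 3.95% at day 4.

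Slc25a5, the translocase of dividing cells, had the highest coverage of any member, 38.6% and 35.4% at day 0, then 8.99% and 8.93% at day 2 and 31.3% and 16.9% at day 4. Day 2 differed from day 0 by -29.6 to -26.4 points, and both day 4 replicates were below both of day 0, by -21.7 to -4.07 points. All of it came from dsRNase calls, and ssRNase gave 0% in each of its 6 call sets. Over all genes with an exonic PPS the mean dsRNase coverage was lower at day 2 as well. It was 3.66% and 4.18% at day 0, 3.05% and 2.03% at day 2, and 4.96% and 3.95% at day 4. How much of the Slc25a5 differences this holds was not tested. The Slc25a5 values are also uncertain, because 1242 of the 1646 exonic nucleotides (75.5%) have a copy of at least 96% identity elsewhere, on 3 chromosomes, and coverage outside the copied part was 0% at each day. The aligner kept reads with up to 10 hits, and their part in this coverage was not tested.

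Slc25a3, the mitochondrial phosphate carrier, had exonic coverage of 20.5% and 15.7% at day 0, 11.5% and 7.68% at day 2, and 19.4% and 16.3% at day 4. Day 2 was the low point, with differences from day 0 of -12.9 to -4.16 points, and days 0 and 4 overlapped. The all-gene dsRNase means were lower at day 2 too, as given for Slc25a5. Slc25a24, a calcium-regulated ATP-Mg/phosphate carrier, went from 6.76% and 11.8% at day 0 to 3.18% and 9.30% at day 4, with overlapping replicates. Its relatives Slc25a23 and Slc25a25 stayed under 4% in every replicate.

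The nucleotide and cofactor carriers held both the largest rise and the largest fall. Slc25a51, which brings NAD+ into mitochondria, had exonic coverage of 10.2% and 5.01% at day 0, 8.11% and 7.93% at day 2, and 19.5% and 17.7% at day 4. Both day 4 replicates were above all 4 earlier ones, and above day 0 by 7.46 to 14.5 points. With dsRNase it was 4.75% and 3.45% at day 0 and 18.2% and 11.7% at day 4, and with ssRNase 8.42% and 3.09% against 5.59% and 5.97%. The 3′ UTR went from 8.94% (8.94% and 5.78% in the replicates) to 27.6% (26.3% and 19.4%), while the coding sequence was at 23.7% at day 0, 0% at day 2 and 18.8% at day 4. Leaving out the ssRNase replicate 2 calls of days 0 and 4 kept the merged change at 9.66 points but ended the call for Slc25a51. A copy of at least 96% identity exists for 23.0% of its exonic nucleotides, and outside these the merged coverage was 13.4%, 10.1% and 23.7% at the 3 days.

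Slc25a33, a pyrimidine nucleotide carrier, had exonic coverage of 18.3% in both replicates at day 0, of 1.59% and 4.82% at day 2, and of 2.28% in both at day 4. Every day 0 value was above every later one, and from day 0 to day 4 it fell by 16.1 points in each pair. Of its exonic PPSs, 5 were listed for day 0, 2 for day 2 and 1 for day 4, and 1 coding site was shared by the 3 lists. The 5′ UTR was covered for 48.6% and the 3′ UTR for 26.0% at day 0, and both for 0% at days 2 and 4. Both nucleases showed it, with ssRNase at 18.3% and 8.64% and dsRNase at 7.47% and 12.6% at day 0, against 2.28% in both ssRNase sets and 0% in both dsRNase sets at day 4. Slc25a33 was the only member called lower with either nuclease alone.

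Slc25a36, another pyrimidine nucleotide carrier, had exonic coverage of 9.23% and 8.61% at day 0, 5.11% and 5.59% at day 2, and 12.2% and 10.7% at day 4. The 3 days did not overlap, and day 4 was above day 0 by 1.44 to 3.62 points. Copies exist for 19.7% of its exonic nucleotides, and outside these the merged coverage was 7.65%, 3.87% and 11.2%, against 10.4%, 6.83% and 14.7% over all of them. Slc25a17, a peroxisomal cofactor carrier, went from 0% in both replicates at day 0 to 2.00% and 3.44% at day 4. Slc25a16, Slc25a26, Slc25a32 and Slc25a42, carriers of other cofactors, stayed under 6% at every day.

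Slc25a1, which exports citrate, had the second largest merged rise. Its exonic coverage was 0% and 5.55% at day 0, 1.99% and 7.16% at day 2, and 10.4% and 13.6% at day 4. Both day 4 replicates were above the earlier 4, but the smallest pair difference from day 0 was 4.85 points, just short of the call. At day 4 ssRNase gave 0% in both replicates, and the covered part of the coding sequence was 31.5%, against 12.9% at day 0. Slc25a11, the oxoglutarate/malate carrier, went from 9.76% and 9.67% at day 0 to 12.8% and 12.5% at day 4, without overlap and by 2.78 to 3.16 points. Slc25a10, the dicarboxylate carrier, had 0% and 2.84% at day 0 and 0% in both replicates at day 4.

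Of the amino acid carriers, Slc25a44, which takes branched-chain amino acids into mitochondria, had the highest coverage, 10.2% and 6.34% at day 0, 12.7% and 11.8% at day 2, and 14.1% and 13.7% at day 4. Every later replicate was above every day 0 one, by 3.52 to 7.74 points at day 4. Its 5′ UTR was the most covered part, at 57.1%, 63.6% and 70.1% of 368 nt over the 3 days. The aspartate/glutamate carriers Slc25a12 and Slc25a13, the carnitine carrier Slc25a20 and the glutamate carrier Slc25a22 stayed at or under 4.25% of merged coverage at every day. Slc25a45 had 3.95% and 7.78% at day 0 and 0% in both replicates of each later day; 1 of its 3 day 0 sites, in the 5′ UTR, had calls in all 4 sets. Slc25a35 and Slc25a53 were likewise covered at day 0 alone, Slc25a35 for 0% and 1.36%, with copies of 22.6% of its exonic nucleotides, and Slc25a53 for 1.26% in both replicates. Slc25a47 was the reverse, with 0% in both day 0 replicates, 3.58% and 2.21% at day 2, and 3.58% in both of day 4. All of this lay in exons outside its longest-CDS transcript, whose UTRs and coding sequence were at 0% at each day. Slc25a46, an outer-membrane protein of mitochondrial dynamics, had 5.0% and 3.12% at day 0 and 4.79% and 7.02% at day 4, which overlap. Slc25a30, the only uncoupling-protein-like member with an exonic PPS, had 3.98% and 5.78% at day 0 and 3.92% and 3.94% at day 4, lower in every pair, by -1.86 to -0.04 points.

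A few members differed between the nucleases, and at day 0 their shares were near or below those of all genes. At day 0 the dsRNase coverage exceeded the ssRNase coverage by 5 points or more in both replicates for Slc25a4 and Slc25a5 (5.88% of members; 5.95% of all genes), and the reverse held for Slc25a28 (2.94%; 4.08% of all genes). At day 2 Slc25a5 was higher with dsRNase (1.18% of all genes were) and Slc25a28 and Slc25a44 with ssRNase (5.29% of all genes were). At day 4 a group of 5 members was higher with dsRNase, Slc25a1, Slc25a3, Slc25a4, Slc25a5 and Slc25a51, which is 14.7% of members beside 7.01% of all genes, while Slc25a44 was the only 1 higher with ssRNase (3.32% of all genes were). Slc25a44 gave 12.5% and 12.3% with ssRNase at day 4 and 3.77% and 3.55% with dsRNase. Over the 34 members the mean at day 4 was 1.93% and 2.56% with ssRNase and 4.82% and 3.79% with dsRNase. Over all genes it was 3.70% and 3.57% with ssRNase and 4.96% and 3.95% with dsRNase. The members' means and the day 4 dsRNase group include Slc25a5, at 31.3% and 16.9% with dsRNase and 0% with ssRNase. Its values are uncertain because of its copies.

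**Figure D4:**
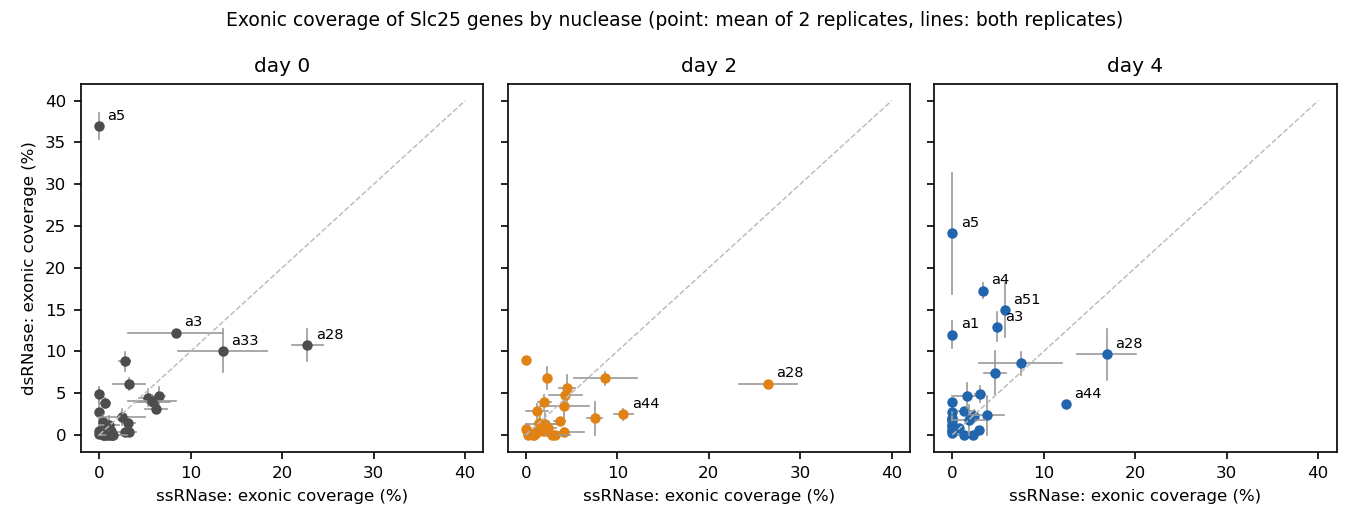
Exonic coverage in percent with ssRNase (x axis) and dsRNase (y axis) for the carrier genes at days 0, 2 and 4; points are means of 2 replicates, lines join the replicates, the dashed line marks equal values and labels leave out the first letters of the symbols. At day 4 Slc25a1, Slc25a3, Slc25a4, Slc25a5 and Slc25a51 lie above the dashed line and Slc25a28 and Slc25a44 below it.

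Single exonic PPSs of the carrier genes were not well shared between replicates. There were 155, 139 and 161 of them at days 0, 2 and 4, with a median length of 58, 57 and 60 nt. Calls of both replicates were found for 31.6%, 33.1% and 39.1%, and no share over all genes was set beside these. The study likewise reports that only a part of all its PPSs was detected in both replicates, so incomplete sharing is not particular to the carriers. At day 4, 99 had dsRNase calls only, 39 ssRNase calls only and 23 both. At day 0 these were 65, 63 and 27. The whole lists moved likewise: the 2 dsRNase call sets held 33777 and 40191 PPSs at day 0 and 66586 and 50594 at day 4. The ssRNase sets held 62202 and 56381, then 53323 and 52539. At day 2 the dsRNase sets held 40730 and 20569 and the ssRNase sets 73596 and 89671. Of the members' exonic PPSs, 36, 34 and 36 had a PPS on the same nucleotides at both other days. Summed over the 34 members, 12.3%, 11.2% and 11.9% of coding nucleotides were covered at days 0, 2 and 4, against 14.7%, 12.5% and 14.9% over all genes. In the 3′ UTRs it was 5.95%, 3.66% and 7.99% against 6.43%, 5.03% and 8.05%.

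PPSs inside introns of the family were most numerous in 1 gene, which also had the longest introns. PPSs wholly inside introns numbered 93, 304 and 174 at days 0, 2 and 4, and Slc25a21, a carrier of oxodicarboxylates in amino acid breakdown, held 39, 246 and 130 of them. It has 479967 intronic nt, the most of any member, and these counts are not scaled to length. Its merged intronic coverage was 0.53%, 3.52% and 1.86% at the 3 days. The medians over all genes with an intronic PPS were 0.49%, 0.65% and 0.50%. In the replicates the intronic coverage of Slc25a21 was 0.40% and 0.27% at day 0, 2.15% and 2.74% at day 2, and 1.44% and 1.13% at day 4. The 3 days did not overlap, and every pair differed from day 0 by 1.75 to 2.46 points at day 2 and by 0.72 to 1.17 points at day 4. Its exons followed at day 2, with 0% and 0.90% at day 0, 6.88% and 8.44% at day 2, and 2.28% and 0% at day 4.

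The Slc25a21 gene spans 485 kb (chr12:56712634-57197472, minus strand), and its intronic PPSs lay mainly near its start. The first 150 kb held 34 of 39, 176 of 246 and 103 of 130 of them, and 1.52%, 8.41% and 4.89% of the intronic nucleotides there were covered, against 0.09%, 1.32% and 0.48% in the rest. With ssRNase the intronic coverage was 0.36% and 0.21% at day 0, 1.68% and 2.67% at day 2, and 0.74% and 0.93% at day 4. With dsRNase it was 0.06% and 0.12%, then 0.85% and 0.22%, then 0.87% and 0.42%. Both nucleases were lowest at day 0. No PPS of the opposite strand was listed anywhere in the gene's span, and 0 of the intronic PPSs lay on an exon of another gene on its strand.

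**Figure D5:**
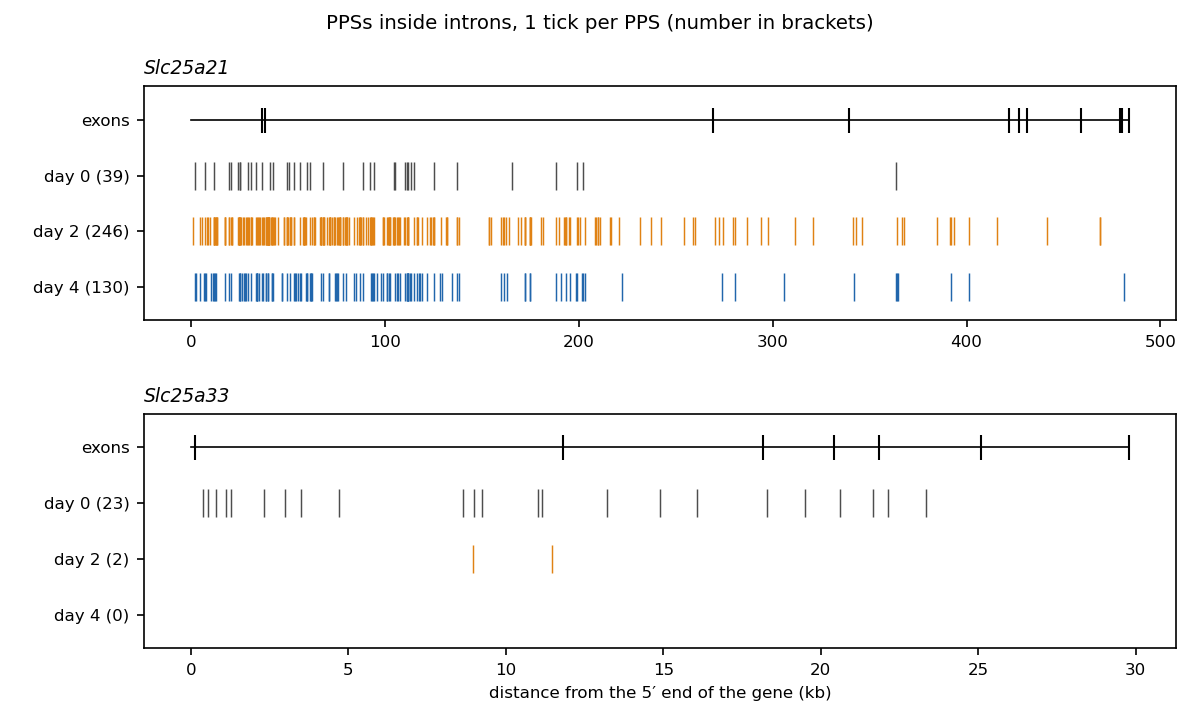
Positions of PPSs wholly inside introns of Slc25a21 and Slc25a33 (x axis, kb from the 5′ end of the gene), 1 tick per PPS, with 1 row per day and the exons of the longest-CDS transcript on the top row. Slc25a21 went from 39 to 246 and 130 intronic PPSs, crowded in its first 150 kb, and Slc25a33 from 23 to 2 and 0.

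Slc25a33 moved the other way in its introns too: coverage was 4.42% and 2.19% at day 0, 0.27% and 0.47% at day 2, and 0.10% in both replicates at day 4. Of its 23 intronic PPSs at day 0, 14 lay in the first intron. In all, 25 members had intronic coverage at some day, with a median change of 0 points from day 0 to day 4, as over the 7333 genes with any. At a limit of 0.5 points in every pair, 4 of the 25 (16.0%) were higher at day 2, Slc25a21, Slc25a30, Slc25a36 and Slc25a51, beside 8.73% of all genes, and 2 were lower, Slc25a11 and Slc25a33, beside 8.54%. At day 4 Slc25a21 and Slc25a51 were higher (8.0%, beside 11.6% of all genes). Slc25a3, Slc25a28 and Slc25a33 were lower (12%, beside 11.8% of all genes). Slc25a11 had 0 PPSs wholly inside introns at each day, so its call came from exonic PPSs that reached into its 1164 intronic nt. The Slc25a3 call rested on 1 intronic PPS, of 203 nt at day 0 and 188 nt at day 4, in 1936 intronic nt. In Slc25a51 the introns were at 0% in both day 0 replicates and at 4.64% and 2.44% at day 4. At days 0, 2 and 4 the intronic PPSs numbered 6, 14 and 9 in Slc25a36, 4, 6 and 6 in Slc25a46, and 2, 5 and 7 in Slc25a44.

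Of the 9 enzymes of heme synthesis 7 were called higher at day 4 and 1, Cpox, lower, where 8.23% and 7.03% of all genes were. Ppox, the enzyme before ferrochelatase, went from 14.7% and 19.1% of exonic coverage at day 0 to 46.5% and 48.1% at day 4. Of 17 other genes of mitochondrial iron and heme handling 16 had an exonic PPS, 6 were called higher and 1, the chaperone gene Hspa9, lower, beside the same shares of all genes. Abcb10, a transporter of the inner mitochondrial membrane, went from 7.78% and 3.53% to 30.5% and 32.4%, and Tmem14c, which helps move a heme precursor, from 15.3% and 34.9% to 56.9% and 45.3%. Of 5 carrier-family genes with other names, 3 had an exonic PPS and Ucp2, an uncoupling protein, was called higher, with 7.83% and 13.4% at day 0 and 20.9% and 19.97% at day 4. The difference between these lists and the Slc25 members was not tested.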

How the data were processed

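Per the submitters' processing notes and the study's methods, adapters were trimmed with cutadapt 1.2.1 and reads were mapped to mm10 with TopHat2 2.0.10, with up to 10 hits kept. PPSs were called by the authors with CSAR at a 5% false discovery rate against the libraries digested after protein removal. The deposited score of a PPS (lowest 5.4) has no stated unit; it ranked PPSs and set 1 alternative. Read counts and library depths were not used here, so depth is unknown. Coverage was computed on GENCODE vM21 with Python 3.11.15, numpy 2.4.6 and pandas 2.3.3, with a minimum overlap of 1 nt. Simulated PPSs on 200 of 21938 genes were recovered exactly. Copies of exons (at least 96% identity over 50 nt) were searched with BLAST 2.17.0. Nucleases were compared within a replicate. Named were Slc25a38, Slc25a39 and Slc25a28, the 10 largest rises and falls of merged coverage, the 3 highest coverages, the 5 members with most intronic PPSs and the 2 largest changes of each other list. Some genes are not reported here. Members and lists were chosen with earlier results of these data known. Alternatives tried were the length class, calls of both replicates, a score of 10, equal list sizes, 1 transcript per gene, 1 nuclease, nucleotides of other genes, other call limits and each replicate left out.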

Additional observations from a re-analysis of the deposited data

Results flagged for a closer look

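PPSs of 20 to 40 nt, left out of the coverage above, were listed on exons of the carrier genes as well: 42 at day 0 on 24 genes, 83 at day 2 on 25 genes, and 44 at day 4 on 20 genes. They made up 21.3%, 37.4% and 21.5% of the members' exonic PPSs at the 3 days. The whole lists, exonic or not, also lost most at day 2 when this length class was left out. They went from 138689, 169575 and 152513 PPSs to 114907, 119487 and 122038, so the day 2 excess was not particular to the carrier genes. Slc25a51 held 16 of them, Slc25a3 held 13 and Slc25a28 held 11 over the 3 days. Slc25a14 and Slc25a15, without any other exonic PPS, had 1 and 3.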

How the results depend on the processing

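The number of members with an exonic PPS stayed between 28 and 36 under every alternative run. The members' median day 4 minus day 0 difference of exonic coverage (0.43 points) was -0.0395 with PPSs of 20 to 40 nt kept, 0 at scores of 10 or more, -0.0917 with equal list sizes, 1.08 on the longest-CDS transcript, -0.76 with ssRNase calls only, 1.06 with dsRNase calls only, and -1.15 to 1.76 with single replicates left out, so it has no settled sign. Leaving out a replicate shortens that day's merged list by construction. The day 2 change (-1.05) was -0.0411 with calls of both replicates required, 0.70 at scores of 10 or more, -2.13 on the longest-CDS transcript, -0.67 with ssRNase only, -0.49 with dsRNase only, 0 without the ssRNase replicate 2 calls of days 0 and 4 (an alternative chosen after seeing the data), and -2.14 to 1.06 with replicates left out. Members called higher at day 4 (2) numbered 4 on the longest-CDS transcript, 0 with ssRNase only, 7 and 0 at limits of 2 and 10 points, 1 without those ssRNase calls, and 2 to 3 with replicates left out. At scores of 10 or more the count was 2 again, but Slc25a1 took the place of Slc25a4. Members called lower (1) numbered 2 at scores of 10 or more, 2 with equal list sizes, 3 on the longest-CDS transcript, 4 at a limit of 2 points, and 1 to 2 with replicates left out: Slc25a45 joined without day 0 replicate 1, and Slc25a5 without day 0 replicate 2 or day 4 replicate 1. Slc25a33 was called lower in each setting where calls were made, with a merged change of -18.3 to -12.6 points. The median intronic change (0) was 0.17 with calls of both replicates, 0.27 at scores of 10 or more, -0.0099 with equal list sizes, -0.0099 with ssRNase only, 0.14 with dsRNase only, 0.0056 without those ssRNase calls, and -0.0731 to 0.14 with replicates left out. The change of Slc25a28 (-4.21) was -1.84 with calls of both replicates, -12.2 on the longest-CDS transcript, -6.64 with ssRNase only and -8.96 to 1.89 with replicates left out. That of Slc25a38 (3.02) was -7.32 to 9.06 and that of Slc25a39 (-2.21) -4.39 to 2.18 with replicates left out. The cause of these differences was not tested. No paired analysis was possible because the results are ranges that come from no test; differences within a replicate number are among the 4 pairs behind each range, and the labels do not link the numbers across days.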
